A study of Homo sapiens with 6 samples.

Results

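The well-expressed ZNF genes were the rows of the count table whose symbol is ZNF followed by a number and at most 1 letter, and whose mean raw count over all 6 libraries was 1000 or more. They numbered 157 of the 553 rows with such a symbol and of 53719 rows in all. They were chosen by their mean count, so their abundance is a description. That mean took both groups together, so the rule itself did not use the difference between groups. The set was, however, chosen with earlier results of these data known. The mean counts ran from 1001.2 to 16438. Just inside the limit lay ZNF677 (1001.2) and ZNF155 (1003.7), and just outside it lay ZNF704 (980.0) and ZNF746 (977.0). All 157 passed the filter on low counts, which left 19721 genes in the test.

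RNA came from H9 cells, an established line of human embryonic stem cells, grown in RSeT, a culture medium sold for keeping such cells in a naive-like state. In the knockdown group (3 libraries, a to c) the cells had been transfected for 48 h with a gapmer aimed at ALR, the alpha satellite RNA made from centromere repeats. The control group (3 libraries, a to c) had received a control gapmer. Gapmers are antisense oligonucleotides whose central DNA stretch lets RNase H cleave the paired RNA. The comparison asks what loss of ALR does to gene expression. Both groups were the same line in the same medium, the knockdown libraries carry the title Sense3, and the labels do not say whether the letters are separate cultures. P-values therefore measure only the spread between these libraries, which may be technical. The level of ALR itself was not analysed here, so the extent of the knockdown is not measured below. The knockdown libraries share the title Sense3, so effects of ALR loss and other effects of the gapmer cannot be told apart.

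Total counts were 25087629 to 36576752 per library. Knockdown library a had counts in 29678 rows, against 25898 to 26788 in the other 5 libraries. Of the markers of the line, NANOG, LIN28A, DPPA4 and TDGF1 were abundant, while the row for SOX2 was at 0 in all 6 libraries. The annotation and strand setting of the counting were not stated, so a row at 0 need not mean a silent gene. POU5F1 stood at 124, 151 and 128 CPM (library-scaled counts) in the knockdown and at 113, 86.9 and 96.8 CPM in the control libraries, without overlap (log2 0.42, edgeR adjusted p = 0.0948). The summed level of the 6 identity markers was 3344 to 3708 CPM in the knockdown and 3256 to 3293 CPM in the control libraries. Its part in the results below was not tested. The naive-state marker KLF17 was at 0.362 CPM or less and DPPA5 at 0.798 to 1.27 CPM, so these markers go against the naive label, although DPPA3 (17.8 to 22.5 CPM) and KLF4 (16.4 to 19.1 CPM) were present. Of the primed-state markers, SFRP2 was at 71.38 to 83.56 CPM and ZIC2 at 9.405 to 13.21 CPM, while THY1 was at 0. Of the stroma markers, COL1A2 was at 61.19 to 80.18 CPM and COL1A1 at 18.7 to 25.03 CPM. The rest, 3 of 5, were below 1 CPM in every library. MIXL1, a mesendoderm marker, was at 9.87 to 13.95 CPM, and 4 of 5 on that list were below 1 CPM in every library. The neural marker PAX6 was at 1.499 to 2.625 CPM. All 5 amnion or trophectoderm markers were below 1 CPM in every library. Their summed level was 1.79 to 2.17 CPM in the knockdown and 1.67 to 2.46 CPM in the control libraries. None of the markers tested passed between groups. Some, such as SOX2, KLF17 and THY1, were too low in count to be tested, and CD24 had no row.

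C2H2 zinc fingers are short folds in which a pair of cysteines and a pair of histidines hold a zinc ion, and arrays of them read DNA base by base. In many human ZNF proteins the array is joined to a KRAB domain. KRAB recruits the corepressor TRIM28, and with it the methyltransferase SETDB1 and HP1 proteins, which build heterochromatin on transposable elements and on imprinted loci. The genes have multiplied by tandem duplication, above all on chromosome 19. Pluripotent stem cells are known for expressing many of them.

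The 157 members were 152 protein-coding genes and 5 pseudogenes in GENCODE 29. Their translated coding sequences held a median of 10 C2H2 fingers. The largest arrays were the 33 fingers of ZNF462 and the 31 each of ZNF91 and ZNF142. A KRAB pattern was found in 78 members and not found in 74, and 67 of the 157 lay on chromosome 19. These counts come from simple letter patterns, which miss divergent domains.

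Knockdown of ALR was accompanied by lower RNA of 2 members, ZNF75D and ZNF407, and no member was called higher. That is 1.27% of the members at a Benjamini-Hochberg adjusted p under 0.05 in edgeR's quasi-likelihood test. Over all genes tested the share was 0.786%, with 0.649% called lower, and among the 6600 genes with a mean count of 1000 or more it was 1.39%. The members' share was thus near the background. DESeq2's Wald test called 4 members, all lower (ZNF75D, ZNF407, ZNF292 and ZNF322), against 4.05% of all genes with an adjusted p. limma-voom called ZNF75D and ZNF407, against 0.882% of all genes.

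ZNF75D is a KRAB zinc finger gene on the X chromosome, with 5 fingers found (ENSG00000186376.14, chrX:135248920-135344087, minus strand, GRCh38). It stood at 43.4, 41.7 and 51.0 CPM in the knockdown libraries (a, b, c in order) and at 68.0, 57.4 and 61.2 CPM in the control libraries (a, b, c). All knockdown libraries lay below all control libraries. ZNF75D fell by 27.1%, or -0.46 ± 0.09 on the log2 scale (SE, n = 3 per group, edgeR adjusted p = 0.0384). The raw counts behind it were 1231 to 1391 in the knockdown and 1781 to 2222 in the control. Its locus overlaps ETDA, ETDC and other annotated genes on the opposite strand, and the strand setting of the counting was not stated.

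ZNF407 encodes a long protein with 23 fingers found and no KRAB pattern, and is known for a role in the expression of PPARG target genes in fat cells (ENSG00000215421.9, chr18:74597870-75065671, plus strand). Its level was 82.7, 76.4 and 96.0 CPM in the knockdown libraries and 121, 106 and 115 CPM in the control libraries, in the same order. These groups did not overlap either. ZNF407 fell by 25.4%, with a log2 fold change of -0.42 ± 0.09 (SE, n = 3 per group, edgeR adjusted p = 0.0466). At 467.8 kb it spans far more of the genome than the median member (38.1 kb). With the dependence of expression on gene span taken out library by library, its log2 fold change was -0.34 and the call was lost (edgeR adjusted p = 0.0609). Both calls were lost when any library other than knockdown c was left out: the edgeR adjusted p was then 0.0967 to 0.221 for ZNF75D and 0.107 to 0.301 for ZNF407. Without knockdown library c, 19 of the 157 members were called, all lower. Over all genes tested in that fit, 6.40% were called in either direction. The share among well-expressed genes was not taken for that fit.

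The 250 bases before the RefSeq start of each of these genes are shown because they are the only members past the threshold. CpG pairs are in capitals, and each sequence runs 5′ to 3′ on the gene's strand (RefSeq, GRCh38.p14). The window of ZNF407 is chr18:74597620-74597869 on the plus strand, with 15 CpG pairs. The window of ZNF75D is chrX:135296040-135296289 on the minus strand, with 6 CpG pairs, and lies within the longer span that GENCODE gives this gene.
ZNF407: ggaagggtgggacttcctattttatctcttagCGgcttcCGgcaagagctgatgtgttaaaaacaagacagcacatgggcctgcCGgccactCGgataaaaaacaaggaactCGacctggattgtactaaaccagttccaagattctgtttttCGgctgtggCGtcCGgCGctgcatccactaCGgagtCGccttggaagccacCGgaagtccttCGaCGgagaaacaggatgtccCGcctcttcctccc
ZNF75D: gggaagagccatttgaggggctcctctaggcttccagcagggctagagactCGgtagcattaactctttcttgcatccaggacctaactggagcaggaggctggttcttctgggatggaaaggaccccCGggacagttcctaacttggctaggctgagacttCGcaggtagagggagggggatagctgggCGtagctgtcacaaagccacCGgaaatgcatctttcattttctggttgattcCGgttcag

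The RefSeq promoter table (250 bases before to 50 after each start) held 137 of the 157 members. Their median GC content was 61.7%, against 58.3% over all 27305 promoters, and the median number of CpG pairs was 22 against 14. The letters CCCANNATG, a core bound by ZNF143, occurred on either strand in 6.57% of the members' promoters and in 4.66% of all. AAGATGGCG, a core bound by YY1, occurred in 5.11% and 1.85%, and TATAAA in 7.30% and 12%. None of these letters occurred in the promoter windows of ZNF75D or ZNF407.

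Over all members the difference was small. The median log2 fold change was -0.06, with quartiles of -0.12 and 0.02 and a range from -0.46 to 0.19. Of the 157 members, 108 (68.8%) had a fitted value below 0, against 54.2% of the 6600 well-expressed genes, whose median was -0.01. The median over all genes tested was 0.02. The median SE of a member was 0.07. At an unadjusted p under 0.05, 22 members were lower (14%), against 14.5% of the well-expressed genes, and 1 was higher, against 7.09%. The 3 knockdown libraries lay below all 3 controls in 34 members (21.7%), against 15.1% of the well-expressed genes. They lay above all 3 in 4 members (2.55%), against 9.0%. With library size alone as the scaling, the share of members below 0 was 59.2% and that of well-expressed genes 45.6%.

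**Figure D1:**
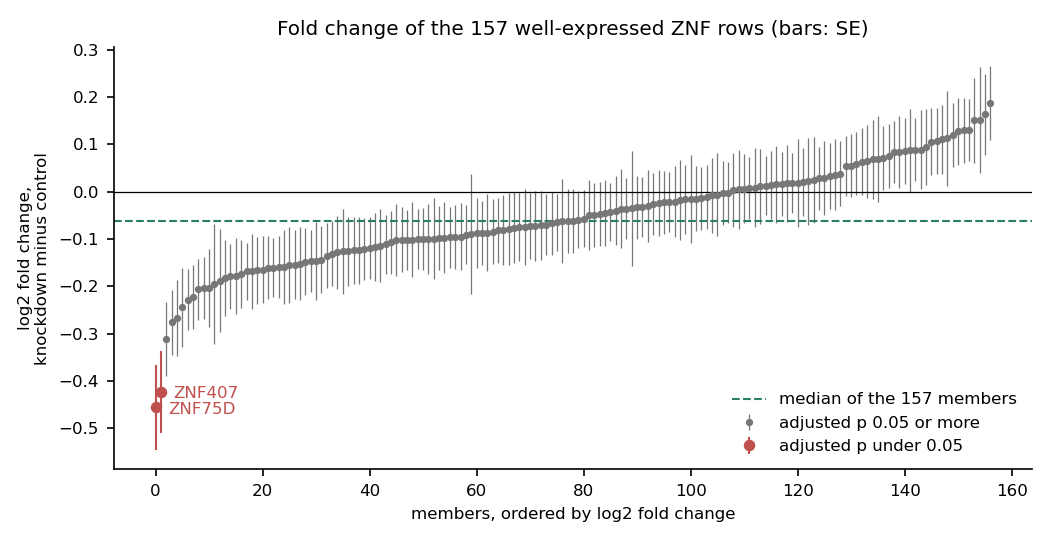
Fitted log2 fold change (y axis, knockdown minus control, bars SE, n = 3 libraries per group) of the 157 members in rank order (x axis). Values run from -0.46 to 0.19, the dashed line is the median of -0.06, and only ZNF75D and ZNF407, in red, pass the threshold.

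Other zinc finger rows had medians nearer 0. The 269 tested ZNF rows with a mean count under 1000 had a median of -0.01, with 142 of 269 below 0, and none passed the edgeR test (8 lower and 11 higher at an unadjusted p under 0.05). DESeq2 called 1 of them lower and 1 higher. The 29 well-expressed ZBTB, ZSCAN, ZKSCAN and ZFP rows, zinc finger genes with other names, had a median of -0.02, with 15 of 29 below 0. None of these passed in edgeR (2 lower and 1 higher at an unadjusted p under 0.05), and DESeq2 called 1 lower, ZBTB20. Both sets have shorter genes than the members, with median spans of 21.0 and 26.1 kb against 38.1 kb. With the span trend removed their medians were -0.05 and -0.07, against -0.09 for the members. The sign of the median changed in 2 of 20 alternatives for the low-count set and in 4 for the other names. The differences between these sets of rows were not tested, and the low-count set carries larger errors (median SE 0.12).

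By library, the members did not separate cleanly into the groups. Relative to each gene's mean over the 6 libraries, the median log2 CPM of the members was -0.05, 0.01 and -0.03 in the knockdown libraries (a, b, c) and -0.03, 0.07 and 0.04 in the control libraries (a, b, c). Control a thus lay among the knockdown libraries. Control b held the highest value of 60 members and knockdown a the lowest value of 55. The 6600 well-expressed genes had medians of -0.03, 0.03 and -0.01 in the knockdown and of -0.01, 0.03 and 0.02 in the control libraries. The share of all counts that fell in member rows was 1.38% in each knockdown library and 1.37%, 1.45% and 1.43% in control a, b and c. In bulk RNA, fewer cells that express a gene and less RNA per cell cannot be told apart.

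**Figure D2:**
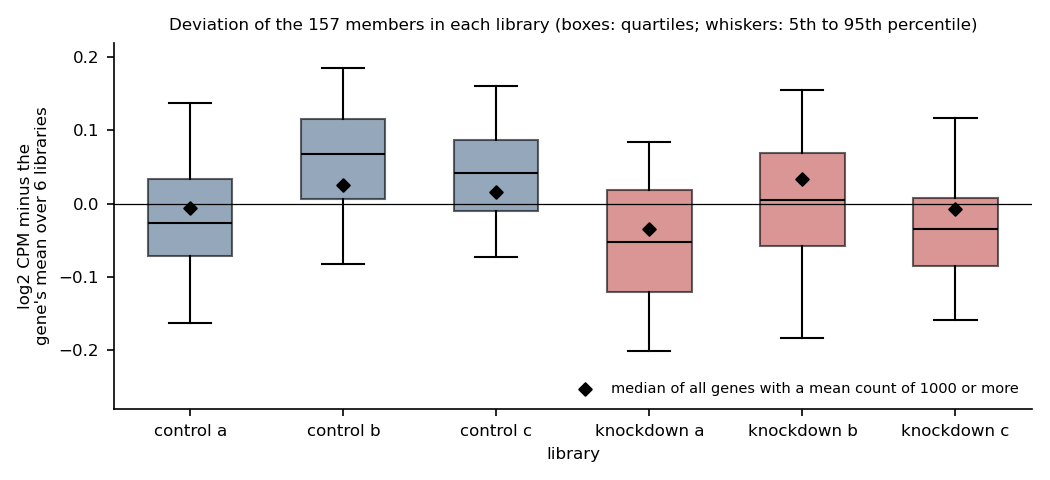
Deviation of each member's log2 CPM from its mean over the 6 libraries (y axis), by library (x axis). Boxes are quartiles and whiskers the 5th to 95th percentiles over 157 members, and diamonds are medians of the 6600 well-expressed genes. Control b (median 0.07) stands highest, and control a (-0.03) lies level with the knockdown libraries.

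The next members by size of change were ZNF292 and ZNF322, which did not pass in edgeR as fitted here. ZNF292, a gene disrupted in a neurodevelopmental disorder and among the most abundant members, stood at 230, 233 and 272 CPM in the knockdown and at 290, 303 and 319 CPM in the control libraries. Its groups did not overlap, and its log2 fold change was -0.31 ± 0.08 (SE, n = 3 per group, edgeR adjusted p = 0.0943). ZNF322 stood at 34.0, 35.0 and 37 CPM against 44.7, 41.9 and 41.8 CPM, again without overlap, with a fitted log2 change of -0.28 ± 0.07 (edgeR adjusted p = 0.0937). Of the 31-base windows in its longest transcript, 30.3% also occur in transcripts of other genes, so its reads may be split between copies. Each passed in 4 of 20 alternatives: in DESeq2 (adjusted p = 0.00391 and 0.0391), in edgeR with no low-count filter (0.00324 and 0.0351) and in edgeR without knockdown library c (0.00198 and 0.0195) for ZNF292 and ZNF322. The other alternative that called ZNF322 was removal of the span trend (edgeR adjusted p = 0.0464).

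At the other end stood ZNF687, ZNF268, ZNF106 and the pseudogene ZNF833P. ZNF687, a partner of the chromatin reader ZMYND8, had 52.2, 58.9 and 55.5 CPM in the knockdown and 50.4, 51.6 and 44.4 CPM in the control libraries. Its knockdown libraries all lay above its controls, by a narrow margin, and its log2 fold change was 0.19 ± 0.08 (SE, n = 3 per group, edgeR adjusted p = 0.301). ZNF268, a gene with 24 fingers found, had a log2 fold change of 0.16 ± 0.09, and ZNF106, an RNA-binding protein of muscle and nerve, one of 0.15 ± 0.11. ZNF833P had 0.15 ± 0.09, but 100% of its windows occur in other genes' transcripts, and it overlaps the annotated gene AC008543.1 on the same strand. The groups overlapped in these 3 members.

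The most abundant members by mean raw count were ZNF532, ZNF462, ZNF121, ZNF638, ZNF483 and ZNF292. ZNF532, another partner of ZMYND8, stood at 477, 509 and 560 CPM in the knockdown and at 555, 554 and 578 CPM in the control libraries, with overlap and a fitted log2 change of -0.13 ± 0.07 (edgeR adjusted p = 0.464). ZNF462, which protects heterochromatin in stem cells, stood at 396 to 431 CPM in the knockdown and 415 to 428 CPM in the control libraries, with a log2 fold change of -0.002 ± 0.065. ZNF121 had a log2 fold change of -0.07 ± 0.07, ZNF638 -0.09 ± 0.06 and ZNF483 0.11 ± 0.10. On a scale of mean CPM per kb of exon, which allows levels to be set between genes, the order was ZNF121 (53.6), ZNF483 (52.1), ZNF589 (49.1), ZNF730 (46.6), ZNF90 (45.7) and ZNF532 (45.1). The median member stood at 10.2 on that scale.

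**Figure D3:**
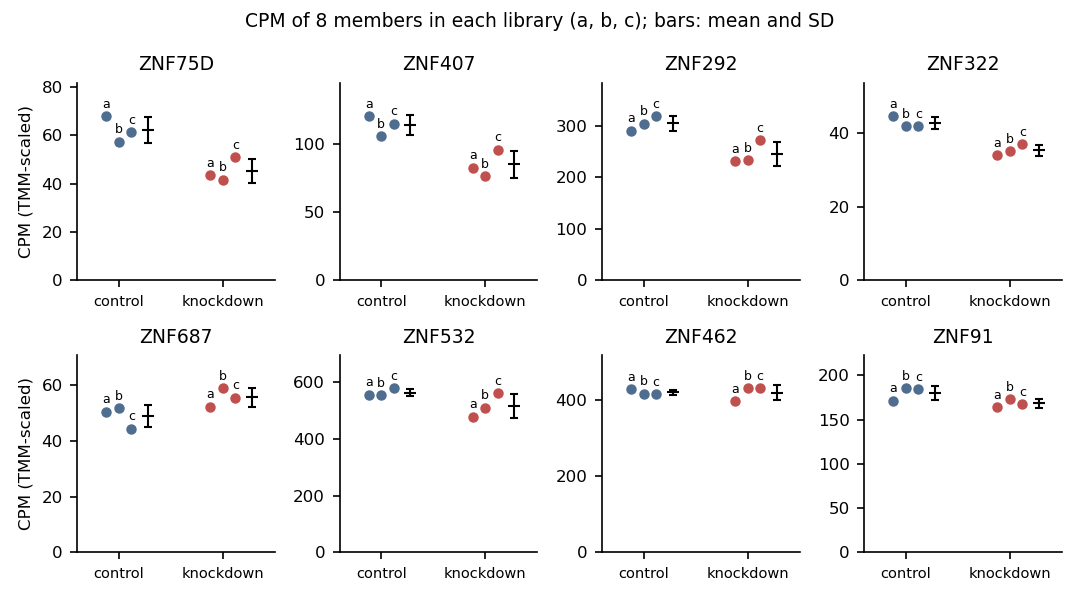
TMM-scaled CPM (y axis, from 0) of 8 members in each library, with points lettered a to c and bars for mean and SD (n = 3). The groups are apart in ZNF75D, ZNF407, ZNF292, ZNF322 and, narrowly, in ZNF687, and overlap in ZNF532, ZNF462 and ZNF91.

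Read by what the proteins do, no group of members held a gene that passed in edgeR, DESeq2 or limma-voom. Among KRAB proteins that bind retroelements, 5 of 11 listed genes were members, with a median log2 fold change of -0.045 and none at an unadjusted p under 0.05. ZNF91, the repressor of SVA elements and of L1PA elements, stood at 164, 174 and 168 CPM in the knockdown and at 171, 186 and 185 CPM in the control libraries. Its groups overlapped, and its log2 fold change was -0.10 ± 0.06 (edgeR adjusted p = 0.506). ZNF611, which binds SVA elements, had 0.09 ± 0.09, ZNF141 had -0.06 ± 0.07 and ZNF808, which binds MER11 elements, had -0.045 ± 0.069.

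Of 16 genes tied to imprinting or pluripotency, 8 were members, with a median of -0.002 whose sign changed in 7 of 20 alternatives. None had an unadjusted p under 0.05. ZNF589 had a log2 fold change of -0.11 ± 0.07, ZNF398, which supports the pluripotent state of human embryonic stem cells, -0.06 ± 0.06, and ZNF281, a partner of NANOG and OCT4, 0.08 ± 0.07. ZNF445, a keeper of imprints, had 0.06.

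Activators and promoter-binding factors gave 5 members of 8 listed, with a median of -0.08 that turned to 0.0003 without control a, and none at an unadjusted p under 0.05. ZNF143, which binds many promoters and chromatin loop anchors, had -0.10 ± 0.07, and ZNF335, part of a histone H3K4 methyltransferase complex, -0.08 ± 0.08. ZNF24 had 0.09 ± 0.07 and ZNF148, which binds GC-rich promoters, -0.09 ± 0.13.

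Partners of chromatin cofactors were the fullest list, with 14 of 17 as members and a median of -0.04. At an unadjusted p under 0.05, 4 of 14 were lower and 1 higher, against 14.5% and 7.09% of all well-expressed genes. These genes are long, with a median span of 117.9 kb. In the range of the members' longest span class, 695 of 3042 well-expressed genes were lower at that threshold and 123 higher. With the span trend removed the list's median was -0.064, and with the GC trend removed -0.043. The part of span in the list's values was not tested. ZNF608 stood at 93.7, 95.1 and 101 CPM in the knockdown and at 107, 111 and 107 CPM in the control libraries, without overlap (log2 fold change -0.16 ± 0.06, edgeR adjusted p = 0.275). ZNF827, which brings the NuRD remodeller to telomeres, had -0.20 ± 0.08 (edgeR adjusted p = 0.293), and its groups overlapped. ZNF516 had -0.17 ± 0.07, and ZNF644, a partner of the methyltransferases G9a and GLP, -0.17 ± 0.07. The single higher one was ZNF687, described above.

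Members that act on RNA, ribosomes or the spindle numbered 5 of 10 listed, with a median of -0.05 and none at an unadjusted p under 0.05. ZNF638, which works with the HUSH complex to silence retroviral DNA, stood at 325, 324 and 343 CPM in the knockdown and at 346, 362 and 350 CPM in the control libraries. Those groups did not overlap, yet the edgeR adjusted p was 0.545. ZNF326, which links splicing to transcript elongation, had a log2 fold change of -0.06 ± 0.06, and ZNF207, a kinetochore protein, -0.05 ± 0.07. ZNF346, which binds double-stranded RNA, had 0.02 ± 0.09. Of 7 listed genes of genome maintenance 2 were members, ZNF451 (-0.12 ± 0.07), a SUMO ligase, and ZNF280C (-0.15 ± 0.08), and neither had an unadjusted p under 0.05.

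The genes of the machinery that KRAB proteins call on are not members. All 23 listed corepressor and HUSH genes were tested, with a median log2 fold change of 0.06 and 14 of 23 above 0, and the median stayed above 0 in all 20 alternatives (0.0005 to 0.10). None passed in edgeR, DESeq2 or limma-voom (DESeq2 gave 2 of them no adjusted p). At an unadjusted p under 0.05 in edgeR, 5 of 23 were higher and none lower, against 7.09% and 14.5% of all well-expressed genes. These genes have a median GC content of 47.6%. Of 3454 well-expressed genes in the range of the members' GC-richest class (median 52.2%), 2101 were above 0. At the same unadjusted threshold, 424 of the 3454 were higher and 280 lower. With the GC trend removed the list's median was 0.058, and with the span trend removed 0.007, against 0.059 in the main fit. The part of GC content or gene span in the list's values was not tested. CHD3, a remodelling subunit of NuRD, stood at 39.5, 45.2 and 39.5 CPM in the knockdown and at 36.6, 31.4 and 32.3 CPM in the control libraries, without overlap (log2 fold change 0.31 ± 0.08, edgeR adjusted p = 0.119). UHRF1, which guides maintenance methylation of DNA, had 0.22 ± 0.07, CBX1, an HP1 protein, 0.16 ± 0.07 and the deacetylase HDAC1 0.14 ± 0.06. TRIM28 itself stood at 619, 697 and 620 CPM against 592, 603 and 562 CPM, with a fitted log2 change of 0.14 ± 0.07 (edgeR adjusted p = 0.399). TRIM28 falls outside the rule for naming genes and was chosen after its values were seen.

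By domain and array size the medians were close together. The 78 with a KRAB pattern had a median of -0.07 and the 74 without one -0.04. The 82 with 10 or more fingers had -0.05 and the 66 with 1 to 9 had -0.07. Across 152 members, the correlation of fold change with finger number was 0.05 (Pearson) and 0.04 (Spearman). The 67 members on chromosome 19 had a median of -0.06, as did the 90 elsewhere.

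GC content and gene span did go with fold change, in the members and in the other well-expressed genes. The members were cut into 3 GC classes of nearly equal size. In the GC-poorest class (33.9% to 39.4% GC) the median was -0.10, with 44 of 53 below 0. In the middle class it was -0.04, and in the richest -0.02, with 32 of 52 (61.5%) below 0. All well-expressed genes in the same GC ranges had medians of -0.07, -0.05 and 0.03, with 76.5% below 0 in the poorest and 39.2% in the richest. Of 3 like classes by span, the longest had a median of -0.10, with 44 of 53 below 0. The shortest had -0.02, with 30 of 52 (57.7%) below 0. The same span ranges gave -0.07 and 0.05 over all well-expressed genes, with 69.4% below 0 in the longest and 33.3% in the shortest. Across the 157 members Pearson's r of log2 fold change was 0.23 with GC content and -0.39 with log2 span. Across the 6380 well-expressed genes with an annotation these were 0.40 and -0.44. Genes share libraries and are not independent replicates, so these are descriptions. With the GC trend of each library removed, the members' median was -0.05 and that of the well-expressed genes -0.02. Removal of the span trend moved it the other way, to -0.09 against -0.04, with 125 of 157 members below 0, and removal of the length trend gave -0.08 against -0.03.

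**Figure D4:**
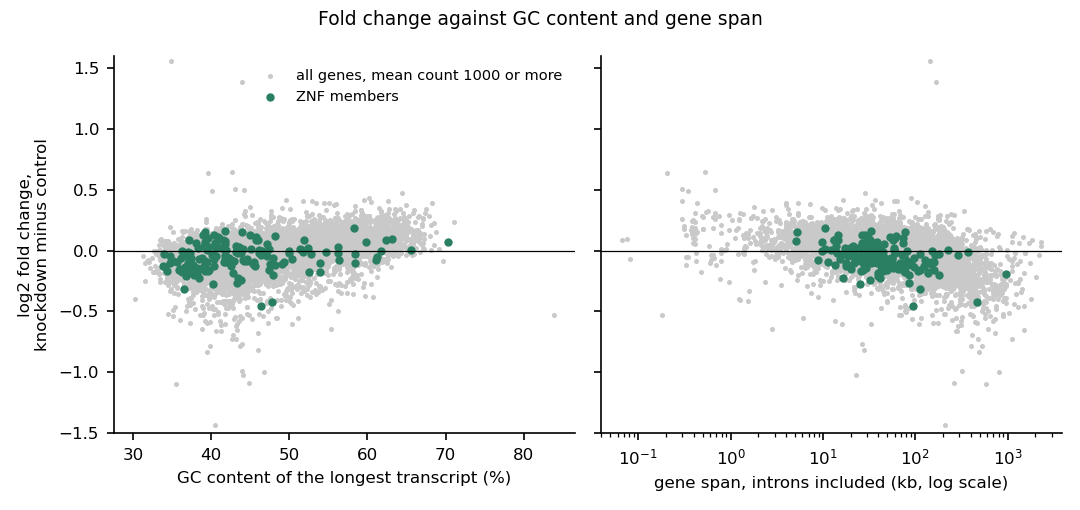
Log2 fold change (y axis, knockdown minus control) against GC content of the longest transcript (left) and gene span in kb on a log axis (right). Grey points are 6380 well-expressed genes and green points the 157 members, which lie within the grey cloud (r = 0.23 with GC content and -0.39 with log2 span).

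Neighbours on chromosome 19 were then described together. Runs of 5 or more members with gaps of at most 1 Mb numbered 7, a grouping made after the values were seen. The run at 19.7 to 21.9 Mb (run 3) held 13 members, of which 12 had a value below 0, with a median of -0.15. The count of 12 held in all 20 alternatives, and the median ran from -0.19 to -0.10, its smallest size being with the GC trend removed. The exception was ZNF101, at 0.13 ± 0.07. These genes are GC-poor (median 37.5%), and the run's medians relative to each gene's mean were -0.12, -0.03 and -0.07 in the knockdown libraries and -0.03, 0.14 and 0.08 in the control libraries, each in the order a, b, c. As over all members, control a lay among the knockdown libraries.

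Within that run, values for some genes were chosen after they were seen. ZNF90 stood at 209, 212 and 229 CPM in the knockdown and at 232, 253 and 242 CPM in the control libraries, without overlap, with a fitted log2 change of -0.16 ± 0.07 (edgeR adjusted p = 0.303). ZNF43 stood at 159, 174 and 165 CPM against 169, 189 and 189 CPM, with overlap and a fitted log2 change of -0.14 ± 0.07 (edgeR adjusted p = 0.402). ZNF100 stood at 62.2, 62.5 and 62.3 CPM against 67.8, 70.4 and 71.8 CPM, with a fitted log2 change of -0.17 ± 0.06 (edgeR adjusted p = 0.242). No gene of the run passed in edgeR, DESeq2 or limma-voom. At an unadjusted p under 0.05, 4 of 13 were lower, against 14.5% of all well-expressed genes and 22.7% of those in the members' GC-poorest range. In that range 76.5% of well-expressed genes had a value below 0. A median of 18.5% of these genes' windows recurs in other genes' transcripts.

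The neighbouring run at 23.1 to 24.1 Mb, which holds ZNF91, had 5 of 6 members below 0 and a median of -0.11. The run at 9.1 to 9.7 Mb, which holds ZNF121, had 6 of 6 below 0 and a median of -0.08. By contrast, the longest run by members, at 51.8 to 53.6 Mb (run 6), had 7 of 17 below 0 and a median of 0.02, whose sign changed in 5 of 20 alternatives. The differences between runs were not tested.

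**Figure D5:**
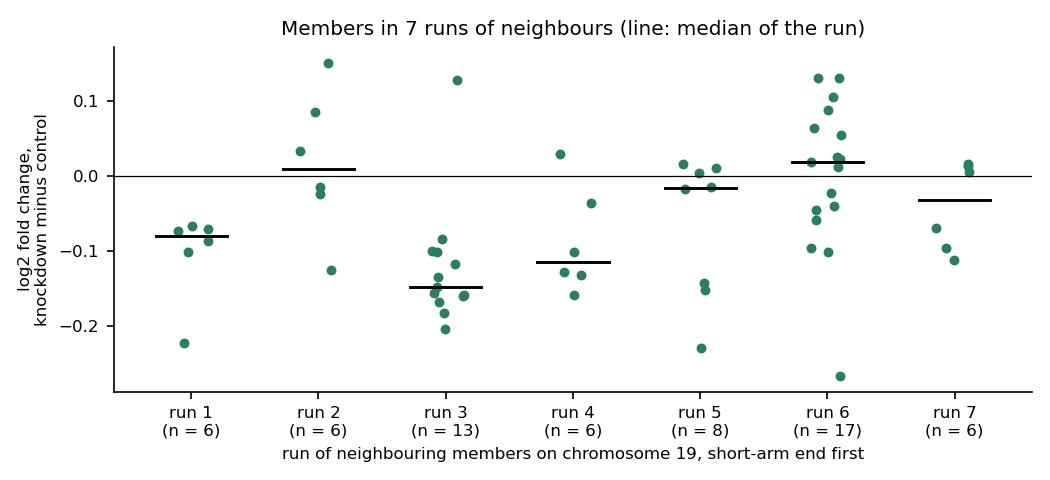
Log2 fold change (y axis, knockdown minus control) of members in the 7 runs of neighbours on chromosome 19 (x axis, ordered from the end of the short arm). Points are members, spread sideways for legibility, and lines are medians. Run 3 (12 of 13 below 0, median -0.15) lies lowest and run 6 (7 of 17 below 0) lies about 0.

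The genes outside the ZNF names whose log2 CPM over the 6 libraries was most like the members' mean profile were OXCT1 (r = 0.995), AASDH (0.991), ZSWIM7 (0.990), TMEM128 (0.988) and C6orf226 (0.987). With 6 libraries and 19721 genes to choose from, values this high are a description only. The mean profile was 6.10, 6.15 and 6.12 log2 CPM in the knockdown libraries and 6.13, 6.21 and 6.19 log2 CPM in the control libraries, each in the order a, b, c.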

How the data were processed

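Directional RNA-seq libraries of total RNA from transfected H9 cells were analysed, 6 in all and 3 per group by the genotype label. The authors deposited raw read counts per gene symbol. Per the submitters' processing notes, Trimmomatic 0.39, STAR 2.7.8a, featureCounts and Subread 2.14.2 and the build hg38 were used. The annotation, strand setting and handling of reads that align to several places were not given in the sources used here, which matters for duplicated and overlapping genes: 115 of 157 members overlap another annotated gene.

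Counts were tested with edgeR 4.0.16 (filterByExpr, TMM, quasi-likelihood, group only), two-sided, with Benjamini-Hochberg adjustment over all 19721 genes and a threshold of 0.05. edgeR's common biological variation coefficient came to 0.103. The CPM values of members use TMM-scaled library sizes, and those of markers use total counts. Log2 fold changes are edgeR fits. The procedure was tested on simulated data. Symbols were matched to GENCODE 29, 153 members by name and 4 by an older symbol. Fingers, KRAB (in the first 250 residues) and windows of 31 bases came from its transcripts. Windows were taken from each member's longest transcript.

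Named were members past the threshold, the 4 largest changes each way, the 6 most abundant, those at the limit and up to 4 per list. Some other genes, such as ZNF445 and ZNF644, were named outside this rule, with their values known. The members and lists were chosen with earlier results of these data known. The 20 alternatives covered scaling (DESeq2 1.42.0 size factors, library size, upper quartile), tests (DESeq2, limma-voom 3.58.1, robust fit), filters, thinning, a replicate block, removal of trends on length, GC content or span, and leaving out each library. The span trend and the runs of neighbours were added after seeing the data.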

Additional observations from a re-analysis of the deposited data

How the results depend on the processing

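The members' median log2 fold change stayed below 0 in all 20 alternatives (-0.09 to -0.03). The 2 calls did not. No member was called with library size alone, upper quartile scaling or thinning to the smallest total (0 each), and 1 was called with a mean count of at least 50. DESeq2's Wald test called 4 and no low-count filter 5. Leaving out each library in turn gave 0 to 19 calls, all lower, and 26 to 1309 genes over all tested, against 155. The most came without knockdown c. Over all genes, 536 were called by DESeq2, 1064 with no low-count filter, 283 with the length trend removed, 240 with the GC trend removed and 238 with the span trend removed. The cause was not tested.

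The libraries were treated as unpaired. The correlations of same-lettered deviations from the group means were 1.23e-05, 0.116 and -0.0251 for a, b and c. They were taken over all genes tested, noisy low-count ones included, and do not settle whether the letters pair the libraries. With the letter as a replicate block, 3 members were called lower, ZNF292 (edgeR adjusted p = 0.0308) besides ZNF75D and ZNF407, and 393 genes over all tested.

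At these depths the median SE of a member's log2 fold change was 0.07, so a single member's difference of the size of the members' median is not detectable. With 3 libraries per group, 1 library can decide a call. Missing strand and multi-mapping settings limit duplicated and overlapping genes.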
